A study of Sus scrofa with 30 samples.

Results

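A set of 121 isomiRs of the porcine endometrium began at another base than the canonical miRNA of the same name. They were taken from the sequences annotated as miRNAs or isomiRs in the study. An isomiR whose name gives a single porcine precursor was aligned to its canonical miRNA, found by the shared root of the names, at the longest ungapped overlap without mismatch, with 12 bases or more required. Of 400 isomiRs placed in this way, 279 differed from the canonical form at the 3' end only and 121 had a shifted 5' end, of which 79 also differed at the 3' end. The 121 belonged to 41 of the 100 canonical miRNAs with placed isomiRs. All 121 were annotated sequences, and the annotation itself had been limited to sequences with at least 10 reads in most libraries of a group, so rarer starts were not considered. Of the 121, 113 had reads in every library and the rest had reads in at least 26 of 30.

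Small RNA was sequenced from endometrium of Hampshire x Duroc gilts aged 7 to 8 months from one herd, which were inseminated, with 1 library per animal. The 30 libraries were from D12, D16 and D20 of pregnancy (PD12, n = 5; PD16, n = 5; PD20, n = 6) and of the estrous cycle (CD12, n = 4; CD16, n = 5; CD20, n = 5). Pregnant horns were flushed free of conceptuses up to D16. PD20 tissue came from attachment sites, from which the conceptus had first been dissected off. A slice of endometrium holds luminal and glandular epithelium, stroma, vessels and blood cells, and in such bulk tissue fewer cells of a type and less RNA per cell cannot be told apart. The libraries held between 2029729 and 6402731 reads, and between 1574834 and 5241838 of them matched the annotated sequences. Each library is a separate animal, and no 2 libraries of a group agreed within sampling noise. One library, PD20 replicate 1, stood apart in its markers, with 409766 CPM, read counts scaled to a common library total, on miR-143 and miR-145, which are abundant in smooth muscle and stroma, against 164883 in the highest CD20 library. Results for PD20 were therefore also computed without it.

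A miRNA is cut out of its hairpin in 2 steps, by Drosha in the nucleus and by Dicer in the cytoplasm. On the 5' arm the Drosha cut sets the 5' end of the mature strand, and on the 3' arm the Dicer cut does so. In Argonaute, target mRNAs are recognized mainly through bases 2 to 8 counted from the 5' end, called the seed. IsomiRs that differ at the 3' end keep the seed, while a cut displaced by a single base at the 5' end moves the seed by a base, so that a single hairpin gives molecules with different seeds. In the names used here, 5' DEL 1 means that the isomiR starts 1 base later than the canonical form and 5' ADD 1 that it starts 1 base earlier.

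The most abundant shifted isomiRs came from miR-10a-5p and miR-10b, which lie in HOX gene clusters, from miR-140-3p, known from cartilage, and from miR-99a. Their sequences are given 5' to 3' as DNA letters with the seed in capitals, each isomiR below its canonical form, to show how the seed moves by 1 base.
miR-10a-5p: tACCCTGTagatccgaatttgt
miR-10a-5p 5' DEL 1: aCCCTGTAgatccgaatttgt
miR-10a-5p 5' DEL 1, 3' ADD 2: aCCCTGTAgatccgaatttgtgt
miR-10a-5p 5' ADD 1: aTACCCTGtagatccgaatttgt
miR-10b: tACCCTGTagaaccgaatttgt
miR-10b 5' DEL 1, 3' ADD 2: aCCCTGTAgaaccgaatttgtgt
miR-140-3p: tACCACAGggtagaaccacggac
miR-140-3p 5' DEL 1: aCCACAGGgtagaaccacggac
miR-140-3p 5' DEL 1, 3' ADD 1: aCCACAGGgtagaaccacggaca
miR-140-3p 5' DEL 1, 3' DEL 1: aCCACAGGgtagaaccacgga
miR-99a: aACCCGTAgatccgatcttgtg
miR-99a 5' ADD 1, 3' DEL 1: aAACCCGTagatccgatcttgt

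Paralogs could share a shifted seed. The pairs below are shown because the same displaced start gave the same new seed in different miRNAs (miR-30a and miR-30e, on both arms) or the same displacement with different seeds (miR-148a-3p, miR-148b-3p and miR-152, whose shifted reads mainly started 2 bases late).
miR-30a-5p: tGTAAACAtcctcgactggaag
miR-30a-5p 5' DEL 1, 3' ADD 2: gTAAACATcctcgactggaagct
miR-30e-5p 5' DEL 1: gTAAACATccttgactggaagct
miR-30a-3p: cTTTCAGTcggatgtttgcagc
miR-30a-3p 5' DEL 1: tTTCAGTCggatgtttgcagc
miR-30e-3p 5' DEL 1: tTTCAGTCggatgtttacagc
miR-148a-3p: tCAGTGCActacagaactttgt
miR-148a-3p 5' DEL 2: aGTGCACTacagaactttgt
miR-148b-3p 5' DEL 2: aGTGCATCacagaactttgt
miR-152 5' DEL 2: aGTGCATGacagaacttgg

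Further sequences are shown because the share of their miRNA passed a test or because a shifted isomiR exceeded its canonical sequence in mean level. For miR-183 the reason is that a large part of its reads was shifted.
miR-183: tATGGCACtggtagaattcactg
miR-183 5' DEL 1, 3' DEL 1: aTGGCACTggtagaattcact
miR-28-3p: cACTAGATtgtgagctcctgga
miR-28-3p 5' ADD 1, 3' DEL 1: cCACTAGAttgtgagctcctgg
miR-425-3p: aTCGGGAAtgtcgtgtccgccc
miR-425-3p 5' ADD 1, 3' DEL 1: cATCGGGAatgtcgtgtccgcc
miR-504: aGACCCTGgtctgcactctatct
miR-504 5' DEL 1, 3' DEL 1: gACCCTGGtctgcactctatc
miR-214: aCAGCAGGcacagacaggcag
miR-214 5' ADD 1, 3' ADD 1: tACAGCAGgcacagacaggcagt

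Most displaced starts were a single base away from the canonical one. Of the 121 isomiRs, 59 started 1 base late, 34 started 1 base early and 20 started 2 bases late, with 8 at other distances. By reads the late start by 1 base dominated, with 89.2% of all shifted reads, against 6.95% for the early start by 1 base and 3.67% for the late start by 2 bases. The reads were concentrated in few miRNAs: miR-10a-5p held 43.8% of them, miR-10b 33.7% and miR-140-3p 10.5%, and the 10 largest contributors together held 97.0%. In all, 2463404 reads were shifted, which is 4.14% of the 59554007 reads placed on the 41 miRNAs and 3.20% of all reads on the annotated sequences.

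By reads, the first base of the shifted isomiRs was mostly adenine. An A opened 59 of the 121 isomiRs and 94.1% of their reads, whereas 8 of the 41 canonical sequences began with A and 19 with T. In the sequences of miR-10a-5p, miR-10b and miR-140-3p printed above, the canonical form opens with T and the late start by 1 base exposes the A that follows it. These 3 miRNAs held 88.1% of all shifted reads, and in the other 38 miRNAs an A opened 55.0% of the shifted reads. The 121 isomiRs carried 59 distinct seeds, compared with 34 distinct seeds in their 41 canonical sequences. Of these 59 seeds, 2 were also the canonical seed of another miRNA in the annotated list: that of miR-151-5p 5' DEL 2 equals the seed of miR-28-5p and miR-708-5p, and that of let-7g 5' DEL 1 equals the seed of miR-196b. Both isomiRs were scarce, with means of 12.9 and 8.27 CPM.

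Another 4 shifted seeds occurred in more than 1 miRNA. CCCTGTA was formed by 11 isomiRs of miR-10a-5p and miR-10b with 1868813 reads in sum, TAAACAT by 4 isomiRs of miR-30a-5p and miR-30e-5p with 14790 reads, CCCGTAG by 6 isomiRs of miR-99a, miR-99b and miR-100 with 9103 reads, and TTCAGTC by 4 isomiRs of miR-30a-3p and miR-30e-3p with 8704 reads. Within the miR-99 family the starts differed. In miR-99a the early start held 3.13% of the placed reads and the late start 0.0382%, whereas in miR-99b and miR-100 all shifted isomiRs started 1 base late.

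The 41 miRNAs differed widely in the share of reads with a shifted 5' end. This share is the number of shifted reads as a percent of all reads placed on a canonical miRNA, so it does not depend on library size. Its mean over the 30 libraries ranged from 0.106% to 68.6% with a median of 3.17% over the 41 miRNAs, and 13 miRNAs were above 10%. Single values carry counting error on top of the spread between animals, and reads amplified by PCR are not independent molecules.

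In miR-140-3p the shifted form was the main one, with 60.5% ± 3.72 (SD, n = 30) of its reads and values from 53.8% to 69.9%. The late start by 1 base gave 57.1% and the late start by 2 bases 3.14%. Every library had a shifted majority. The isomiR miR-140-3p 5' DEL 1 was measured at 1354 ± 595 CPM (SD, n = 30) and the canonical sequence at 540.4 CPM, and the isomiR was above the canonical sequence in 30 of 30 libraries with a geometric mean ratio of 2.60 (0.5 added to both counts). The 5' DEL 1, 3' ADD 1 form was likewise above the canonical sequence in 30 of 30 libraries (ratio 2.06), while 5' DEL 1, 3' DEL 1 was above it in 21 of 30 (ratio 1.33).

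Besides these 3 isomiRs of miR-140-3p, another 3 of the 121 exceeded their canonical sequence in mean level. For miR-214 5' ADD 1, 3' ADD 1, of a miRNA transcribed together with miR-199a, the geometric mean ratio was 2.45 and 28 of 30 libraries were above 1. In miR-425-3p, the passenger strand of a hairpin next to miR-191, the ratio was 2.52 and 23 of 30 libraries were above 1, at only 26.4 placed reads per library. The early start of miR-99a reached a ratio of 1.05 and exceeded its canonical sequence in 19 of 30 libraries. The order of these sequences thus changed between animals. These ratios leave out reads with the canonical start but another 3' end. Of 37.2 CPM placed on miR-214, the canonical sequence had 4.30 CPM and the shifted isomiR 10.1 CPM. In miR-99a the canonical sequence had 477 of 19781 CPM placed, and the shifted share was 3.17%.

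Next to miR-140-3p, the highest shares among miRNAs with at least 100 placed reads per library were 58.3% ± 9.89 for miR-145-3p, the passenger strand of miR-145, and 31.9% ± 4.10 for miR-183, an epithelial and sensory miRNA of the cluster with miR-182 and miR-96 (SD, n = 30 for both). The miR-145-3p value rests on 109 placed reads per library. Shares between 10% and 20% were measured in miR-10a-5p (19.6% ± 1.58), miR-542-3p (19.1% ± 2.45), miR-30a-3p (14.9% ± 1.92), miR-10b (13.4% ± 0.973), miR-664-3p (13.2% ± 4.64), miR-126-3p (12.7% ± 1.64) and miR-423-3p (12.0% ± 4.10). The share of miR-664-3p ranged from 3.85% to 23.5% at 14.9 shifted reads per library. In miR-126-3p, the endothelial miRNA, 3 starts were frequent, with 8.47% of reads 1 base early, 3.67% 1 base late and 0.589% 2 bases late.

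At the other end stood very abundant miRNAs with precise starts. miR-21, which received more reads than any other of the 41, had a shifted share of 0.106% ± 0.0123 (SD, n = 30) and a range of 0.0833% to 0.132%, although it had 10 shifted isomiRs. Among the others, let-7g had 0.433% and miR-143-3p, the smooth muscle miRNA, 0.496%. Between miR-21, miR-140-3p and miR-10a-5p the number of shifted sequences did not follow the share, since miR-140-3p also had 10 and miR-10a-5p had 13. By arm, 9 of the 41 are named for the 5' arm, 17 for the 3' arm and 15 for neither, and the median of the mean shares was 2.63% on the 5' arm and 3.86% on the 3' arm, which is given as a description.

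Related miRNAs had like shares in some families and not in others. The 3 members of the miR-148 family were at 1.66% ± 0.248 for miR-148a-3p, 1.97% ± 0.687 for miR-148b-3p and 1.19% ± 0.280 for miR-152 (SD, n = 30 for each). In miR-30e-5p the share was 2.96%, against 0.857% in miR-30a-5p, while on the other arm it was 3.86% in miR-30e-3p and 14.9% in miR-30a-3p. The order of miR-30a and miR-30e was thus opposite on the 2 arms. No p is given for these differences between miRNAs, which share libraries and hairpins.

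For most of the 41 miRNAs the share varied less between animals than the level did. In the 17 miRNAs with at least 100 shifted reads per library, the coefficient of variation of the share over the 30 libraries was below that of the summed CPM in 17 of 17. Its median was 12.9% for the share and 54.0% for the level. Over all 41 it was lower for the share in 38, the exceptions, each with few shifted reads, being miR-28-3p (46.2% for the share and 42.0% for the level), miR-497 (44.5% and 36.1%) and miR-374a-3p (33.6% and 24.2%). The latter 2 were named after their values were seen. Values of miR-10b, for example, stayed between 11.7% and 15.4%, while miR-10b itself took between 3.14% and 25.1% of all reads placed on the 41 miRNAs.

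Shifted starts came with particular 3' ends. In 17 miRNAs the annotated late starts had more than 1 kind of 3' end, and in 16 of these the late reads ended later on average than reads with the canonical start. Early starts had more than 1 kind of 3' end in 7 miRNAs, and ended earlier in 6. In the remaining 16 miRNAs with late and 12 with early starts, the annotated shifted sequences had a single 3' end, so that their end depends on which sequences passed the annotation filter. In miR-10a-5p the shifted share was 10.4% among reads with the canonical 3' end, 41.2% among reads 1 base longer at this end and 55.8% among reads 2 bases longer. Among the few reads 1, 2 and 3 bases shorter it was 19.7%, 22.9% and 14.4%, also above the value at the canonical end. From the canonical end to 2 bases longer the values were 4.05%, 26.1% and 68.5% for miR-10b. For miR-140-3p they were 38.8% among reads 1 base shorter at the 3' end, 72.7% at the canonical end and 72.8% among reads 1 base longer. Of the reads that started late, 58.8% in miR-10a-5p and 75.3% in miR-10b were also longer than the canonical form at the 3' end. In miR-140-3p this held for 37.3%, while 42.4% had the canonical 3' end and 20.3% a shorter one. Over all 41 miRNAs the read-weighted mean length was 22.1 bases for reads that started 1 base late and 22.2 for reads with the canonical start. These means weight the miRNAs differently, so they do not compare lengths within a miRNA. In miR-21 all late reads averaged 21.4 bases, against 22.5 with the canonical start. The values were 22.1 and 22.7 in miR-140-3p, and 22.02 and 22.2 in miR-10a-5p. Late reads were the longer ones only in miR-10b (22.3 and 22.2), miR-143-3p and miR-497.

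Whether the use of the shifted start differed between pregnancy and cycle or between days was tested by the ratio of shifted to unshifted reads within each library, in a quasi-likelihood fit of edgeR over all 30 libraries and 138 end ratios (41 at the 5' end and 97 at the 3' end). P-values were adjusted by Benjamini-Hochberg over the 138 and log2 differences are those of the ratio. Over the 6 groups, 2 of 41 miRNAs differed in their 5' share, miR-30a-5p (adjusted p = 0.00239, edgeR) and miR-504 (adjusted p = 0.00917, edgeR), against a background of 7.97% of the 138 ratios. The call of miR-30a-5p was lost with only exact canonical reads as the denominator (adjusted p = 0.0617, edgeR). That of miR-504 was lost with limma (adjusted p = 0.0562, limma). The count for the 3' end was 9 of 97. In a simulation at this depth, 30 of the 138 ratios, drawn from both ends, were changed between PD20 and CD20. Of these changes 63.3% were recovered at 2-fold and 17.3% at 1.5-fold, so that small differences could mostly not be detected. Recovery among the 41 ratios at the 5' end alone was not computed.

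The clearest difference between pregnancy and cycle on D20 was in miR-10a-5p, where a smaller part of the reads began 1 base late in pregnancy. The share in PD20 had a lowest value of 16.4%, a median of 17.9% and a highest value of 18.7% (n = 6). In CD20 the 5 libraries had 22.3%, 21.02%, 21.5%, 20.4% and 21.7%. Every PD20 library was below every CD20 library. The log2 difference of the ratio was -0.34 (SE 0.0841, adjusted p = 0.0125, edgeR). It was -0.33 without PD20 replicate 1 (adjusted p = 0.0182, edgeR). The call was lost without CD20 replicate 1 (-0.32, adjusted p = 0.0536, edgeR) and with only exact canonical reads as the denominator (-0.30, adjusted p = 0.133, edgeR).

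The other groups overlapped CD20, PD20 or both. PD12 ranged from 19.2% to 22.2%, PD16 from 18.4% to 20.8%, CD12 from 17.5% to 21.5% and CD16 from 18.4% to 20.6%. On D12 pregnancy was slightly above the cycle (0.17, SE 0.0932, adjusted p = 0.736, edgeR), with overlapping groups. The change of the P vs. C difference from D12 to D20 itself was -0.51 (SE 0.125, adjusted p = 0.0220, edgeR) and miR-10a-5p was the only one of 41 called for it, with 2.17% of the 138 ratios called. That call was lost without CD12 replicate 1 (-0.47, adjusted p = 0.0634), replicate 2 (-0.51, adjusted p = 0.0576) or replicate 4 (-0.48, adjusted p = 0.0607; all edgeR). It was also lost with the replicate block. Between D16 and D12 no share of the 41 was called for such a change (3 at an unadjusted p under 0.05) and between D20 and D16 none either (9 at an unadjusted p under 0.05), with 0 and 0.725% of the 138 ratios called by edgeR. Over the 3 pairs of days limma also called 1 of the 41. DESeq2 was not run on these changes.

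Split by 3' end, the median share of miR-10a-5p was lower in PD20 than in CD20 at each end, but the groups overlapped at each. Among reads with the canonical 3' end the median was 9.35% in PD20 and 11.3% in CD20, and among reads 1 base longer 38.2% and 42.6%. Among reads 2 bases longer it was 55.3% in PD20 and 64.3% in CD20. Reads 2 bases longer, which have the highest shifted share, made up 7.40% to 10.3% of miR-10a-5p in PD20 and 10.2% to 15.1% in CD20. Reads 1 base longer, with the next highest shifted share, went the other way, with a median of 13.04% of miR-10a-5p in PD20 and 8.49% in CD20. The split by 3' end was chosen after the values had been seen and carries no test. For miR-140-3p the share among reads 1 base shorter was between 29.8% and 38.3% in PD20 and between 38.8% and 48.1% in CD20, without overlap, whereas the groups overlapped among reads 2 bases shorter, at the canonical end and 1 base longer.

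In total 3 of 41 miRNAs differed in their 5' share between PD20 and CD20, with 6.52% of the 138 ratios called. Besides miR-10a-5p they were miR-28-3p and miR-425-3p, both with few reads. The early and late starts of miR-28-3p, from an intron of LPP, made up 1.69% of its reads at lowest, 1.98% at the median and 2.47% at highest in PD20. In CD20 they made up 7.41%, 4.71%, 3.41%, 2.52% and 2.94%. All PD20 libraries were below all CD20 libraries, and the log2 difference of the ratio was -0.96 (SE 0.275, adjusted p = 0.0270, edgeR) at 31.4 shifted reads per library.

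miR-425-3p moved in the other direction, with shares of 70.0% at lowest, 89.0% at the median and 100% at highest in PD20. The CD20 values were 34%, 41.7%, 61.5%, 12.5% and 70.8%, so that 1 CD20 library overlapped the lowest PD20 value. The log2 difference was 2.95 (SE 0.743, adjusted p = 0.0125, edgeR) at 26.4 placed reads per library, and the log2FC in level was 0.34 for its shifted isomiR (SE 0.461, adjusted p = 0.633, edgeR) and -2.62 for the canonical sequence (adjusted p = 0.0519, edgeR), whose median was 0.889 CPM in PD20 and 3.9 CPM in CD20. All 3 calls were kept without PD20 replicate 1. None of the 3 was kept without CD20 replicate 1, where the differences were -0.72 for miR-28-3p (adjusted p = 0.147) and 2.68 for miR-425-3p (adjusted p = 0.0549; both edgeR). Counted over all deposited sequences that contain the core of the miRNA, the difference of miR-28-3p was -0.08 (adjusted p = 0.824, edgeR). The call of miR-28-3p was also lost without PD20 replicates 3, 5 or 6 or CD20 replicate 2, with adjusted p (edgeR) of 0.0559, 0.0683, 0.0536 and 0.100 and differences between -0.96 and -0.88.

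The other abundant shifted miRNAs showed no called difference on D20. For miR-140-3p the share was 53.8% to 62.3% in PD20 and 55.7% to 69.9% in CD20, with a log2 difference of -0.22 (adjusted p = 0.442, edgeR; 95% interval -0.52 to 0.07). For miR-10b, which shares the shifted seed with miR-10a-5p, the ranges were 11.7% to 14.2% and 13.03% to 14.2%, with a difference of -0.03 (adjusted p = 0.903, edgeR; 95% interval -0.20 to 0.15). The difference found in miR-10a-5p was therefore not seen in miR-10b, although the 2 were not compared by a test.

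On D12 and on D16 pregnancy and cycle had no called 5' share among the 41 in edgeR (1 and 3 at an unadjusted p under 0.05), limma or DESeq2, with 0 of the 138 ratios called on either day. The median log2 difference of the 41 ratios was 0.03 on D12, 0.01 on D16 and -0.01 on D20, compared with 0.02, 0.03 and 0.12 over all 138. The shifted starts as a group were thus near 0 on each day, with 20 of 41 above and 21 of 41 below 0 on D20.

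Between days, the shifted share of miR-30a-5p was lower on D20 than on D12, in pregnancy and in the cycle. In the cycle its share was 0.902%, 1.28%, 1.24% and 1.32% on D12. On D20 it was 0.626%, 0.525%, 0.657%, 0.869% and 0.744%. All CD20 libraries were below all CD12 libraries, and miR-30a-5p was the only one of 41 called (-0.81, SE 0.148, adjusted p = 0.00103, edgeR), with 2.9% of the 138 ratios called. CD16 ranged from 0.767% to 0.977% and overlapped both. Leaving out any single library kept this call. The reads that were 2 bases longer at the 3' end, the end of the main shifted isomiR printed above, had a median of 61.4% of miR-30a-5p in CD12 and 43.3% in CD20. Within these reads the shifted share had a median of 1.85% in CD12 and 1.37% in CD20 without overlap, and of 1.42% in PD12 and 1.05% in PD20 with overlap. Markers separated the same groups, with 1329 to 3439 CPM of miR-126 in CD12 and 4061 to 6214 CPM in CD20, and 112 to 256 CPM of the leukocyte list in CD12 and 317 to 727 CPM in CD20, and their part in the difference was not tested.

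During pregnancy the share of miR-30a-5p was 0.846%, 1.03%, 1.00%, 0.842% and 1.13% on D12. On D20 it had a lowest value of 0.561%, a median of 0.693% and a highest value of 0.809%, without overlap with PD12. The log2 difference was -0.49 (SE 0.132, adjusted p = 0.0272, edgeR). Together with miR-10a-5p, whose share was lower in PD20 than in any PD12 library (-0.28, SE 0.0841, adjusted p = 0.0457, edgeR), it made 2 of 41 called, with 6.52% of the 138 ratios called. The call of miR-10a-5p was held in 14 of 30 omissions of a single library. It was lost without any of the PD12 or PD20 libraries and without PD16 replicate 3, CD12 replicate 2, CD16 replicates 2 and 4 or CD20 replicate 3, with differences between -0.32 and -0.25 and adjusted p up to 0.139 (edgeR). That of miR-30a-5p was held in 25 of 30, and was lost without PD12 replicates 2 or 5 or PD20 replicates 2, 4 or 6, with differences between -0.50 and -0.43 and adjusted p up to 0.0898 (edgeR). Both calls were also lost with only exact canonical reads as the denominator and with the replicate block. The PD20 vs. CD20 difference of miR-30a-5p was 0.03 (SE 0.132, adjusted p = 0.935, edgeR).

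In miR-504, which lies in an intron of FGF13, the share fell in the cycle from D12 to D16. Its values were 9.20%, 21.8%, 15.7% and 10.3% in CD12. In CD16 they were 1.64%, 5.04%, 7.14%, 4.82% and 3.85%, all below the lowest CD12 value. The log2 difference was -1.95 (SE 0.386, adjusted p = 0.00319, edgeR), at 11.9 shifted reads per library, and miR-504 was the only one of 41 called, with 2.17% of the 138 ratios called. With miRNAs under 20 shifted reads per library left out, miR-504 is not tested.

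No 5' share of the 41 was called for PD16 vs. PD12 or PD20 vs. PD16 in edgeR (1 at an unadjusted p under 0.05 for each), limma or DESeq2, with 0 of the 138 ratios called. For CD20 vs. CD16 edgeR called none of the 41 (9 at an unadjusted p under 0.05, with 1.45% of the 138 ratios called) and DESeq2 called 3, with 9.42% of the ratios called. Without CD20 replicate 4 edgeR called 4, with 7.25% of the ratios called.

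The share summed over the 41 miRNAs varied more with the proportions of the miRNAs than with the share of each. This pooled share, the sum of shifted reads as a percent of all reads placed on the 41, ranged from 1.63% to 9.11% over the libraries. For pregnancy its median was 3.46% on D12, 2.75% on D16 and 2.40% on D20. For the cycle it was 4.71%, 4.72% and 6.31%. The CD12 value was 2.87% without replicate 1 or replicate 4. With each of the 41 miRNAs weighted equally, the order of the D20 groups was opposite, with a median of 11.1% in PD20 (10.2% to 11.5%) and 10.4% in CD20 (9.64% to 10.98%), and the groups overlapped. When the share of each miRNA was held at its mean over the 30 libraries and only their proportions varied, the range was 1.55% to 9.77%, with medians of 2.52% in PD20 and 5.99% in CD20. When the proportions were held and only the shares varied, the range was 3.82% to 4.62%, with medians of 4.07% in PD20 and 4.39% in CD20. These recalculations were chosen after the values had been seen.

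Of the reads placed on the 41, miR-21 took between 23.3% and 74.9%, and it hardly shifts its start. miR-10a-5p and miR-10b, with shares above 13%, together took between 4.64% and 54.9%. Their median was 9.85% in PD20 and 33.1% in CD20, although the groups overlapped (5.31% to 27.4% and 9.98% to 36.1%). No test was run on the pooled share, because it sums over isomiRs chosen with results known.

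In level, most shifted isomiRs were low. The 121 had mean levels between 2.47 and 6072 CPM with a median of 11.9 CPM, compared with 23.9 CPM for the 279 isomiRs changed at the 3' end only, and 18 of the 121 were under 5 CPM. The highest were miR-10a-5p 5' DEL 1, 3' ADD 2 at 6072 ± 5516 CPM, miR-10a-5p 5' DEL 1 at 5811 ± 5539 CPM and miR-10b 5' DEL 1, 3' ADD 2 at 5708 ± 4139 CPM (SD, n = 30 for each). They ranked 22, 23 and 24 among all annotated sequences. Their SD was near their mean, and the first of them ranged from 349 to 21599 CPM.

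Levels were compared as normalized read counts (TMM-scaled CPM of all annotated sequences) with the quasi-likelihood test of edgeR. Calls needed a log2FC beyond 1 in size besides an adjusted p below 0.05. Between PD20 and CD20, 1 of the 121 was called, against 1.49% of all annotated sequences. It was miR-30a-3p 5' DEL 1, 3' DEL 1, with values of 12.4 at lowest, 21.5 at the median and 51.5 at highest in PD20. In CD20 the values were 1.51, 5.99, 4.65, 9.47 and 8.57. Every PD20 library was above every CD20 library (log2FC 2.09, SE 0.503, adjusted p = 0.04997, edgeR, just under the threshold). The call was held in 23 of 30 omissions of a single library and was lost without PD20 replicates 1, 3, 5 or 6 or CD20 replicates 1, 2 or 3, with log2FC between 1.74 and 2.19 and adjusted p up to 0.114 (edgeR). Without PD20 replicate 1 the log2FC was 2.19 (adjusted p = 0.0772, edgeR). The isomiR was also not called with RLE scaling, all deposited reads as library size, a filter of 10 CPM or the replicate block. Conversely, edgeR called 11 of the 121 without PD20 replicate 4, 9 without CD20 replicate 4 and 6 without CD20 replicate 5, with 13.3%, 11.9% and 6.76% of all annotated sequences called under the same omissions.

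The other shifted isomiRs with large differences between PD20 and CD20 did not pass. The miR-10a-5p 5' DEL 1, 3' ADD 2 form had a median of 1420.4 in PD20 and 7641 in CD20 (log2FC -1.93, SE 0.592, adjusted p = 0.0633, edgeR), with overlapping groups. For miR-140-3p 5' DEL 1 the median was 1338 in PD20 and 611 in CD20 (log2FC 1.01, SE 0.503, adjusted p = 0.191, edgeR), and its 3' ADD 1 form had 1.29 (SE 0.545, adjusted p = 0.135, edgeR). In miR-30a-3p 5' DEL 1 the log2FC was 1.40 (SE 0.405, adjusted p = 0.0630, edgeR). The median log2FC of the 121 was 0.12 and that of all annotated sequences was -0.03, with 65 of the 121 above 0 and 56 below.

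Within pregnancy, miR-10b 5' DEL 1, 3' DEL 1, a 20-base minor form, was the only one of the 121 called. Its normalized read counts were 29.7, 19.9, 21.7, 26.1 and 23.1 in PD12. They were 18.96, 21.8, 22.7, 10.8 and 14.3 in PD16. In PD20 the lowest was 27.6, the median 50.5 and the highest 81.8, above every PD16 library and overlapping PD12. The log2FC was 1.42 vs. PD16 (SE 0.318, adjusted p = 0.0414, edgeR) with 0.573% of all sequences called, and 1.04 vs. PD12 (SE 0.311, adjusted p = 0.0448, edgeR, for D16 and D20 jointly) with 0.802% called. CD20 libraries had between 18.4 and 26.5, below every PD20 library (log2FC 1.17, SE 0.348, adjusted p = 0.0630, edgeR).

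Each of these calls of the miR-10b isomiR was held in 21 of 30 omissions of a single library. Both were lost without PD12 replicate 5, PD16 replicates 2, 3, 4 or 5 or PD20 replicates 2, 3 or 5. The difference from PD12 was also lost without PD12 replicate 2, and the difference from PD16 without PD12 replicate 3. Over the 30 omissions the log2FC ranged from 1.21 to 1.58 vs. PD16, with adjusted p up to 0.137, and from 0.83 to 1.18 vs. PD12, with adjusted p up to 0.111 (edgeR).

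No level of the 121 was called between pregnancy and cycle on D12 or D16, between D16 and D12 of pregnancy, or between days of the cycle by the quasi-likelihood test of edgeR. At an unadjusted p under 0.05 there were 6 of 121 on D12, 23 on D16, 16 for D16 and D20 vs. D12 of pregnancy, 18 for the same test of the cycle and 17 for CD20 vs. CD16. The shares of all annotated sequences at that unadjusted p were 6.07%, 10.9%, 18.7%, 23.9% and 21.2% in the same order. DESeq2 called 0 on D12, 1 on D16, 4 for PD16 vs. PD12, 1 for CD16 vs. CD12, 4 for CD20 vs. CD12 and 2 for CD20 vs. CD16, against 0, 0.802%, 2.86%, 5.84%, 6.41% and 8.59% of all annotated sequences. Among all annotated sequences the shares called by edgeR were 0, 0, 0.229%, 0.115%, 0.458% and 0.458%. Without PD16 replicate 1, edgeR called 13 of the 121 for PD16 vs. CD16 (10.7%), against 4.12% of all annotated sequences.

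For the cycle, the signs of the level differences on D20 are given as a description, since none of the 121 was called by the quasi-likelihood test. The median log2FC of the 121 was -0.26 for CD20 vs. CD12 and -0.25 for CD20 vs. CD16, compared with 0.09 and -0.03 for all annotated sequences. Of the 121, 74 and 77 were below 0, and 47 and 44 were above. Since isomiRs of a miRNA move together and 13 of the 121 are from miR-10a-5p and 10 from miR-140-3p, these counts are not counts of independent changes. The leukocyte list (75.1 to 257 CPM in CD16) was also higher in every CD20 library than in any CD12 or CD16 library. miR-126 was 2310 to 4121 CPM in CD16, overlapping CD20. The part of these markers in the levels on D20 was not tested.

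Markers of other cells were measured in the same libraries, without a test, and the ranges of each list below overlapped between PD20 and CD20. The leukocyte list (4 of 5 names found, miR-146a the most abundant and miR-223 not found) summed to 114 to 509 CPM in PD20 and 317 to 727 CPM in CD20. miR-126, the endothelial marker, summed to 2265 to 4978 CPM in PD20 and 4061 to 6214 CPM in CD20. The epithelial list (10 of 10 found, miR-182 the most abundant) summed to 10852 to 24322 CPM in PD20 and 11498 to 16146 CPM in CD20, and the erythrocyte list (3 of 3, miR-451 the most abundant) to 788 to 4099 CPM and 311 to 2291 CPM. The muscle list (3 of 5, miR-1 the most abundant, miR-133a and miR-133b not found) summed to 1794 to 25891 CPM in PD20, where the highest was replicate 1, and 1223 to 9258 CPM in CD20. The medians in PD20 and CD20 were 263 and 447 CPM for the leukocyte list and 3925 and 5045 CPM for miR-126. For the epithelial list they were 20308 and 13534 CPM. Reads of 22 nt made up 44.4% to 49.3% in PD20 and 49.0% to 52.1% in CD20, also with overlap. The part of these markers and of read length in the 5' shares and levels given here was not tested.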

How the data were processed

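The deposited table holds read counts per distinct sequence and library. Per the series' design text, the authors joined 2 sequencing runs of each library. Per the study's methods and supplement, they filtered bases at a phred score of 20, kept reads with an adapter, removed reads under 17 bases or with unknown bases and counted each distinct sequence, without molecular identifiers. Sequences were annotated by BLAST within Galaxy against miRBase and the porcine genome (Ensembl Sscrofa10.2). Those with several precursors in their names (20 of them shifted) were left out of the shares. Shifted and unshifted counts per miRNA and library were fitted as paired columns with edgeR 4.0.16 (quasi-likelihood test, R 4.3.3), and levels with TMM scaling over all annotated sequences. limma 3.58.1 and DESeq2 1.42.0 were alternatives, as were other denominators, filters, sequence lists and the omission of each library. Placing recovered the true ends of 300 of 300 simulated isomiRs. P-values measure the spread between animals, and standard errors do not cover PCR error. miRNAs were named by the highest share or read number, a called share, or a family with several shifted members. The members, lists and tests were chosen with earlier results of these data known. Markers for embryonic cells were not matched by name here, so their absence is not claimed. The paper reports miR-302 only in PD20, apart from very few reads in CD20. No embryonic marker could therefore be set beside the PD20 results.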

Additional observations from a re-analysis of the deposited data

Results flagged for a closer look

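In 14 of 156 groups looked at, 1 library stood farther from the others of its group than the 95% critical value of Dixon's test, which by its construction chance passes in about 1 in 20 groups. In miR-30a-3p the low libraries were PD16 replicate 4 with a 5' share of 13.1% (others 15.1% to 15.4%), PD20 replicate 2 with 14.5% (others 17.2% to 18.3%) and CD20 replicate 1 with 12.3% (others 15.6% to 16.6%). Low values were also measured for miR-664-3p in CD16 replicate 4 with 3.85% (others from 11.7%) and for miR-99b in PD12 replicate 5 with 0.882% (others from 1.20%).

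High values were measured for miR-10b in CD12 replicate 3 with 13.3%, miR-148a-3p in PD20 replicate 4 with 2.26%, miR-99a in PD16 replicate 1 with 3.79%, miR-21 in PD12 replicate 4 with 0.111%, miR-152 in CD12 replicate 1 with 1.79%, miR-30e-3p in PD12 replicate 4 with 5.61% and miR-151-3p in CD12 replicate 4 with 2.44%. The pooled share was high in PD16 replicate 1 with 7.17% (others up to 3.23%) and in PD20 replicate 4 with 5.13% (others up to 2.83%).

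The P vs. C difference of the miR-10a-5p ratio changed by -0.51 on the log2 scale from D12 to D20 by the test of the difference itself. Outside the shares reported here, 20 shifted sequences whose names give several precursors held 153392 reads on 10 miRNAs.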

How the results depend on the processing

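No called difference of a single miRNA or isomiR changed sign, and uncalled differences were not checked for this. The counts of called 5' shares over 6 groups (2 of 41) were 1 with limma, 1 with exact canonical reads as denominator, 1 with at least 20 shifted reads per library, 6 with DESeq2 and 6 with all deposited sequences placed by their core, and 2 to 3 when single libraries were left out. Over all contrasts 5 miRNAs were called, against 8 with sequences of several precursors counted, 3 with the filter on reads and 3 to 7 when single libraries were left out. For PD20 vs. CD20 the count of 3 became 0 to 4 when single libraries were left out. For PD20 vs. PD12 (2) it was 1 with limma, 0 with the exact denominator, 4 with several precursors and 0 to 2 with libraries left out. CD16 vs. CD12 (1) gave 0 with the filter and 1 to 2 with libraries left out, CD20 vs. CD12 (1) gave 2 with DESeq2 and 2 with several precursors and stayed at 1 with libraries left out, and CD20 vs. CD16 (0) gave 3 with DESeq2, 1 with shifts of 1 base only and 0 to 4 with libraries left out. The change of P vs. C between days (1) was 0 to 1 with libraries left out. Apart from CD20 vs. CD16, the share of the 138 ratios called under these alternatives is not given here. The counts are therefore not read as a result about the shifted starts. The cause of these changes was not tested.

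Called levels of the 121 isomiRs rested on the test. Over all contrasts the count of 2 became 22 with DESeq2, 19 with the likelihood ratio test of edgeR, 1 with RLE, 0 with all deposited reads as library size and 0 to 15 with libraries left out. Calls among all annotated sequences rose as well, for PD20 vs. CD20 from 13 in the main fit to 131 with DESeq2. For PD20 vs. PD12 DESeq2 called 5.27% of all annotated sequences and 6.61% of the 121. For PD20 vs. PD16 it called 1.72% and 1.65%. The share of all annotated sequences called by the likelihood ratio test is not given here. Counts of called isomiRs under these alternatives are therefore not read as a result about the shifted starts. DESeq2 and the likelihood ratio test called 12 and 10 for PD20 vs. CD20 (1), 8 and 8 for PD20 vs. PD12 (1), 2 and 2 for PD20 vs. PD16 (1), 1 and 1 for PD16 vs. CD16 (0), 4 and 4 for PD16 vs. PD12 (0), 1 and 1 for CD16 vs. CD12 (0), 4 and 4 for CD20 vs. CD12 (0) and 2 and 1 for CD20 vs. CD16 (0). PD20 vs. CD20 gave 0 with RLE, 0 with all deposited reads, 0 with at least 10 CPM and 0 to 11 with libraries left out. PD20 vs. PD12 and PD20 vs. PD16 gave 0 with all deposited reads, and 0 to 3 and 0 to 1 with libraries left out. The other level counts were 0 to 13 for PD16 vs. CD16 and 0 to 1 for PD16 vs. PD12, CD16 vs. CD12, CD20 vs. CD12 and CD20 vs. CD16 with libraries left out.

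The median pooled share without miR-21 was 7.69%, 5.79%, 5.76%, 9.19%, 8.23% and 9.73% in PD12, PD16, PD20, CD12, CD16 and CD20. As the mean of the 41 shares it was 10.6%, 10.9%, 11.1%, 10.5%, 10.6% and 10.4% in that order, so that PD20 was above CD20 and the order of the days was opposite to that of the pooled share in pregnancy, and with the proportions held it was 4.07% in PD20. With single libraries left out it was 3.37% to 4.02% in PD12, 2.34% to 2.99% in PD16, 2.29% to 2.50% in PD20, 2.87% to 6.55% in CD12, 4.69% to 5.72% in CD16 and 4.48% to 6.39% in CD20.

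In their 5' ratios, libraries with the same replicate number did not deviate together. The median correlation was 0.000857 over 70 pairs, against -0.00362 over 304 other pairs. The numbers were therefore used as names of libraries, although a pairing that leaves these ratios unchanged could not be seen. With the replicate block the counts were 0 for the change of P vs. C between days, 0 for the shares of PD20 vs. PD12, and 0 for the levels over all contrasts and for PD20 vs. CD20, PD20 vs. PD12 and PD20 vs. PD16.

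Among the called miRNAs, miR-425-3p had 26.4 placed and miR-504 11.9 shifted reads per library, and the part of depth in these calls was not tested. In simulated data 17.3% of 1.5-fold differences in the ratio were recovered, over ratios of both ends.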
